A study of Mus musculus with 4 samples.

Results

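The genes described here are 9 members of the type 1 immune programme that ends in interferon-gamma, out of 33696 genes measured, and they were listed by name. They are Il12b, a cytokine subunit, the receptor genes Il12rb1 and Il12rb2, the signalling gene Stat4, the transcription factors Tbx21 and Eomes, the cytokine gene Ifng, and its receptor genes Ifngr1 and Ifngr2. Their transcripts were counted as unique molecular identifiers (UMIs, one per captured RNA molecule) in single live CD45+ leukocytes sorted from subcutaneous tumours of KPC cells, a mouse pancreatic cancer line derived from a genetically engineered tumour driven by Pdx1-Cre, grown in male C57BL/6NHsd mice aged 8 to 10 weeks and resected on day 14. The 4 groups were untreated mice, mice given the STING agonist ADU-S100 as 1 intratumoral dose of 2 µg, mice given an LTbR agonist (the anti-LTβR antibody 4H8, 100 µg intraperitoneally, 4 doses up to day 10), and mice given the STING and LTbR agonist together, called the combination below. The study pooled 10 tumours per group into 1 library.

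With 1 library per group there was no replicate, so no difference was tested and no p-value is given. Levels are UMIs per 1000000 UMIs of a cell class (CPM), ratios are log2 ratios of CPM between libraries, and every 95% interval covers counting error only, not the spread between mice. A gene is called higher or lower in a class where its CPM differed by 1.5-fold or more and it had at least 100 UMIs over both libraries. The files held 8730, 15404, 14634 and 16322 cells in the untreated, STING agonist, LTbR agonist and combination libraries, with 52109958 to 85855398 UMIs per library, and 34 to 83 barcodes were shared between any pair of libraries (at most 0.539% of the smaller one). Cells were sorted into classes by marker genes that include none of the 9 members, which gave 1396, 604, 1988 and 1660 T cells, 398, 355, 815 and 572 NK cells, 635, 492, 746 and 707 dendritic cells and 3964, 5811, 7230 and 8143 macrophages and monocytes, in the same order. The 8 T markers, such as Cd3e, summed to 3692, 3412, 3478 and 3302 CPM in the T class and to 372, 321, 402 and 339 CPM in the NK class. The 8 NK markers, such as Ncr1, summed to 5045, 5566, 5934 and 6236 CPM in the NK class and to 473, 827, 735 and 717 CPM in the T class. The classes were named by these markers, so the sums describe the classes and do not test their names. The combination library was the shallowest, with a median of 1642 UMIs per T cell against 2864 to 3644.5 in the others, so shares of cells with a UMI are also given after thinning each cell to 1000 UMIs. Neutrophils made up 40.0% of leukocytes in the STING agonist library against 6.69% to 8.88% elsewhere, and the summed level of the 8 neutrophil markers inside the T class was 508 CPM there against 13.3 to 58.1 CPM in the other libraries. Their part in the ratios below was not tested.

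In this programme, dendritic cells and macrophages release IL-12, a pair of a p35 chain (Il12a) and a p40 chain (Il12b) that is shared with IL-23. IL-12 binds a receptor of Il12rb1 and Il12rb2 on NK and T cells, STAT4 is activated, and the T-box factors T-bet (Tbx21) and eomesodermin (Eomes) help to open Ifng. Interferon-gamma then acts through its receptor chains Ifngr1 and Ifngr2 on macrophages, dendritic cells and tumour cells, where it induces antigen presentation and microbicidal genes.

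The start sites of the programme differ in sequence. Promoters of 8 of the 9 members were found in RefSeq (mouse build GRCm38.p6), and 3 are shown because they cover both cytokine genes and Ifngr2, the receptor chain with few UMIs in the T cells that held Ifng. Each line gives the 250 bases before the annotated start of the gene, 5′ to 3′ on the strand of the gene, with every CG and every TATAA in capitals.
Ifng, chr10:118440796-118441045, plus strand: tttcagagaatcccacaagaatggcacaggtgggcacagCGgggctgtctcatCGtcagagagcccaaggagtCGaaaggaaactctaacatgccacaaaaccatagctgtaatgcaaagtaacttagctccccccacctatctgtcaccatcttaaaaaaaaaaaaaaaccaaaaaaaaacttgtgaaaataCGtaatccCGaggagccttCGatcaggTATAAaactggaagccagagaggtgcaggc
Il12b, chr11:44399813-44400062, plus strand: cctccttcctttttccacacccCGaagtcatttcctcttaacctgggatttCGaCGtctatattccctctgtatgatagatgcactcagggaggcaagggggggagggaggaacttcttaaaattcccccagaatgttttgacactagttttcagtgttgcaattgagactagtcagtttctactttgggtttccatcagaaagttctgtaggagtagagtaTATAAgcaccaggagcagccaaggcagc
Ifngr2, chr16:91546809-91547058, plus strand: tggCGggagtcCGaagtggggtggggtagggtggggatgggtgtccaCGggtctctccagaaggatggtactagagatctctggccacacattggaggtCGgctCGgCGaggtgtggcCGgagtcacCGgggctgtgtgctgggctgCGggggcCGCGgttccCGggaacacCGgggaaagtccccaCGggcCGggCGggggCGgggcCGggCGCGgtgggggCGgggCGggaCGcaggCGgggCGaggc
The Ifng promoter held 6 CG pairs at 45.2% G and C and a TATAA 30 bases before the start, and the Il12b promoter held 3 CG pairs at 46% with a TATAA 28 bases before the start. The Ifngr2 promoter held 25 CG pairs at 74.0%, no TATAA, and 4 GC boxes (GGGCGG) within 57 bases of the start. Over 32851 mouse promoters of the same length the median was 6 CG pairs and 52.4% G and C, 16.0% held TATAA on the strand of the gene, and 32.7% held GGGCGG on either strand. The Ifng window also held TACGTAA, a CRE-like motif found in 0.432% of promoters, 59 bases before the start, and TTCAGAGAA, a match to the STAT motif TTCNNNGAA found in 7.02% of promoters, 249 bases before it. Il12b held TTGCAAT, a C/EBP motif found in 1.96% of promoters, 93 bases before its start. The T-box half-site GGTGTGA, found in 3.33% of promoters, had no match in the windows of the 8 members. All motifs except TATAA were searched on both strands, and a match describes letters only.

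The 9 genes fell into cell-restricted and shared ones. Ifng UMIs lay mainly in T and NK cells, with T cells holding 91.8%, 82.1%, 78.6% and 81.7% of all leukocyte Ifng UMIs in the untreated, STING agonist, LTbR agonist and combination libraries, and NK cells 7.71%, 16.4%, 17% and 15.8%. Dendritic cells held 85.5%, 64.4%, 85.1% and 66.9% of the Il12b UMIs, in the same order. Macrophages and monocytes held 78.2%, 76.5%, 78% and 73.6% of the Ifngr2 UMIs, and T cells held 2.65%, 1.06%, 3.18% and 2.62% and NK cells 0.215%, 0.153%, 0.197% and 0.276%. As a measure of free RNA, Ifng had a UMI in 0.0567% to 0.206% of neutrophils and Il12b in 0% to 0.170%, at median depths of 1034 to 2111 UMIs per neutrophil. B and plasma cells had 1, 0, 24 and 4 Ifng UMIs, in 0% to 0.936% of cells at median depths of 2562.5 to 8978 UMIs, and macrophages and monocytes had 5, 4, 28 and 8, so the LTbR agonist library had the most outside T and NK cells, 24 of the UMIs from 5 B and plasma cells. Il12b had at most 1 UMI in B and plasma cells of any library. Stat4 was not restricted: 16.0% to 22.8% of neutrophils and 28.2% to 56.9% of B and plasma cells had a UMI of it.

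**Figure D1:**
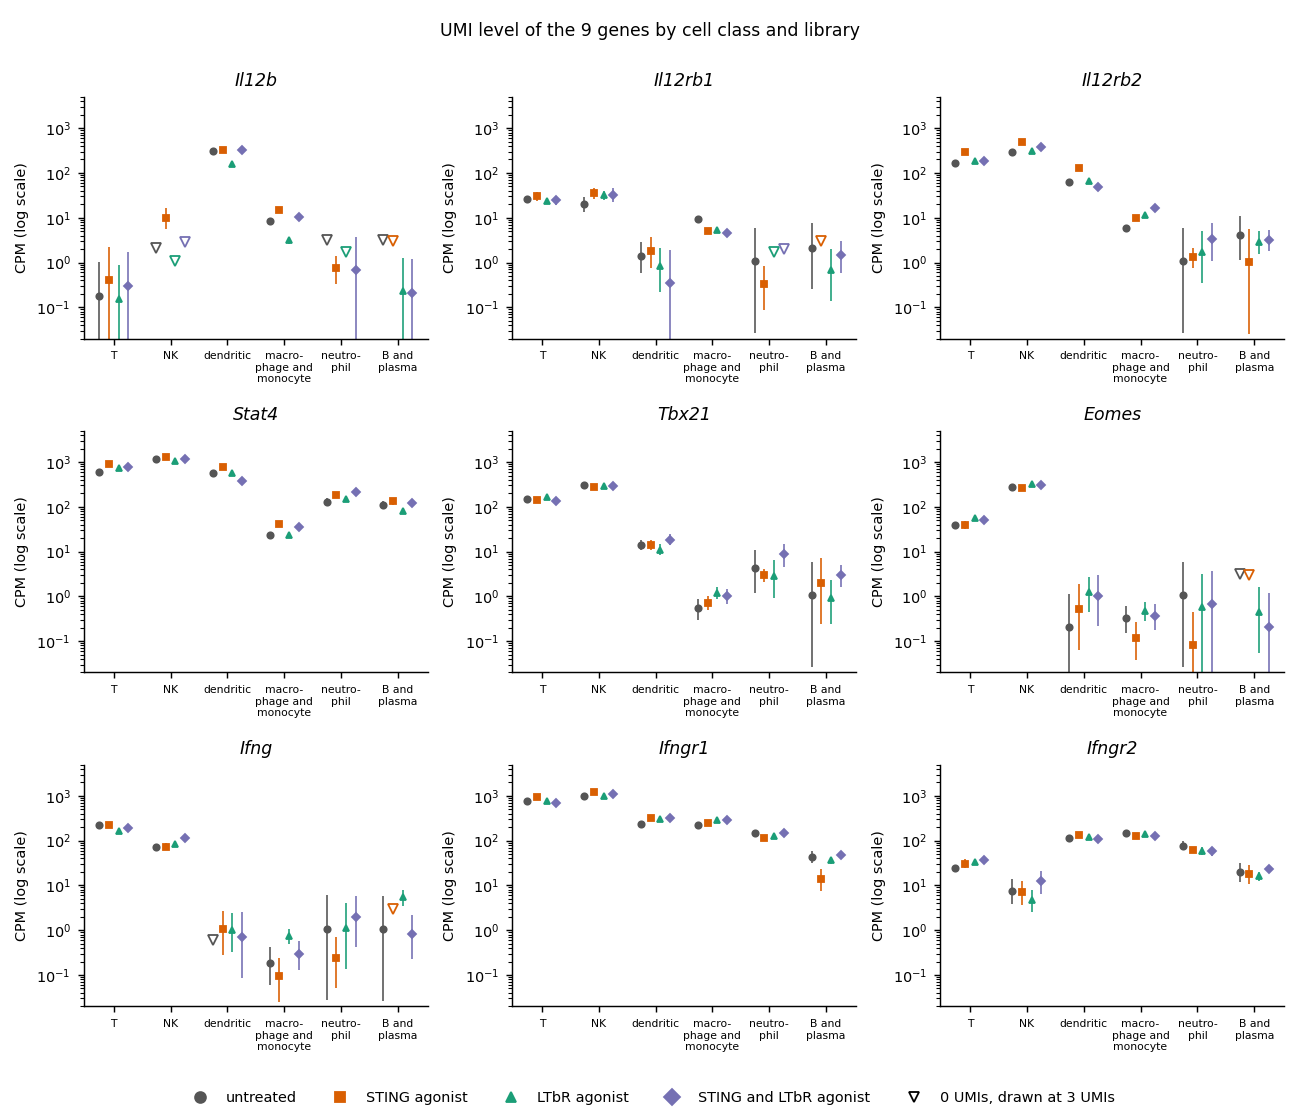
Level of each of the 9 genes in CPM (log axis) in 6 cell classes; each point is 1 library, bars are exact Poisson 95% intervals, and open triangles mark 0 UMIs drawn at the level of 3 UMIs. Ifng, Tbx21 and Eomes are highest in T and NK cells, Il12b in dendritic cells, and Ifngr2 is at 4.70 to 12.3 CPM in NK cells against 127 to 145 CPM in macrophages and monocytes.

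Under the STING agonist, Il12rb2 was called higher in each of the 4 classes, and Stat4 in T cells and in macrophages and monocytes. Under the LTbR agonist, Il12b was called lower in dendritic cells and in macrophages and monocytes. Il12rb1 was called lower in macrophages and monocytes under every treatment. The ratios farthest from 0 among called genes were 1.43 for Il12rb2 in macrophages and monocytes of the combination and -1.42 for Il12b in that class under the LTbR agonist. In the T class, 8 of the 9 genes reached 100 UMIs in each comparison with untreated, and Il12b did not. Il12rb2 and Stat4 were higher under the STING agonist, against 3.13% of all tested genes higher and 5.68% lower. None was called under the LTbR agonist (3.88% of genes higher and 3.86% lower), and Ifngr2 alone was higher in the combination (3.26% and 4.26%). Among NK cells, 6, 7 and 6 genes were tested, and 1 was higher in each comparison. It was Il12rb2 under the STING agonist (2.84% of genes higher, 3.44% lower), Il12rb1 under the LTbR agonist, the 1 comparison in which it reached 100 UMIs (2.96% and 1.48%), and Ifng in the combination (3.77% and 2.17%). Among dendritic cells, with 6 genes tested each time, Il12rb2 was higher under the STING agonist (4.49% of genes higher, 5.19% lower), Il12b was lower under the LTbR agonist (5.23% and 2.53%) and Stat4 was lower in the combination (4.63% and 3.87%). Among macrophages and monocytes, also with 6 tested, Il12b, Il12rb2 and Stat4 were higher and Il12rb1 lower under the STING agonist (6.31% of genes higher, 14.8% lower). Il12rb2 was higher and Il12b and Il12rb1 lower under the LTbR agonist (4.66% and 4.09%), and Il12rb2 and Stat4 were higher and Il12rb1 lower in the combination (4.75% and 3.83%). The median gene shifted by -0.22 in the macrophage and monocyte class under the STING agonist and by at most 0.08 in size in the other comparisons with untreated. The 3 comparisons share the untreated library, so an unusual untreated value would appear in all of them.

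**Figure D2:**
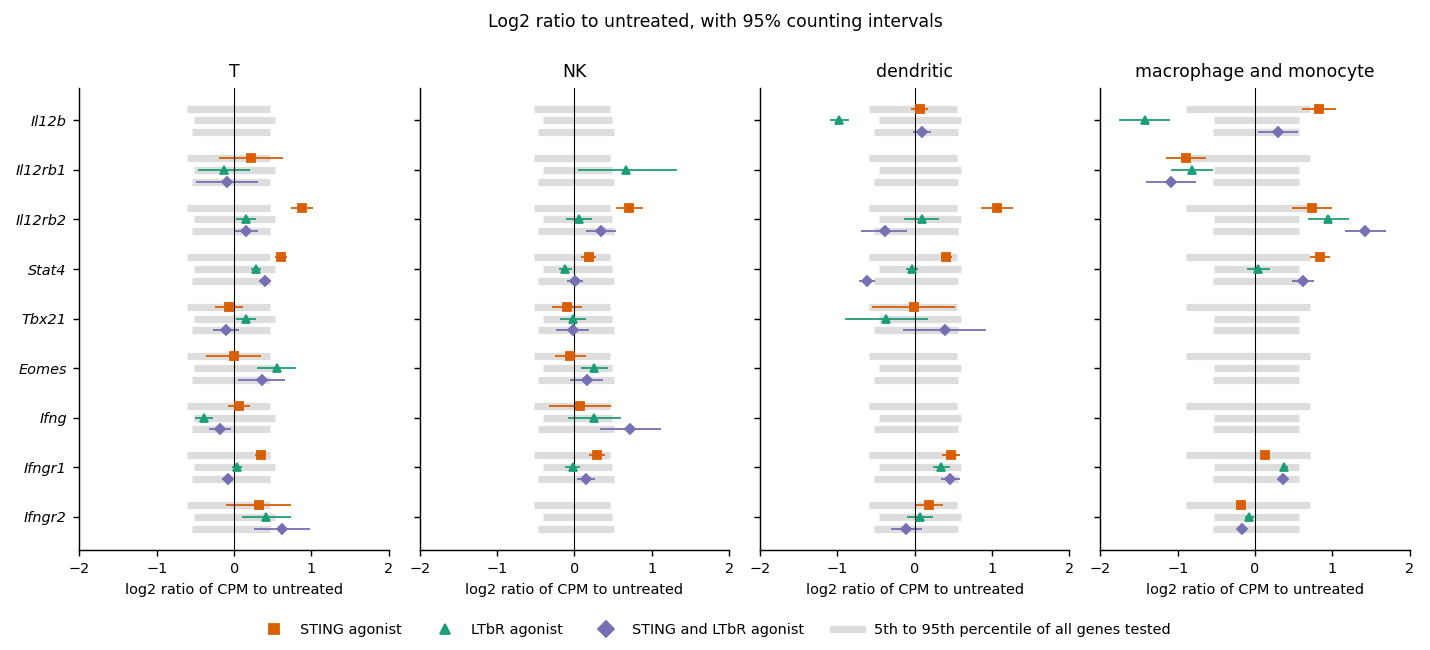
Log2 ratio of CPM to untreated (x axis) for each gene (rows) in 4 cell classes (panels), with 95% counting intervals, for genes with at least 100 UMIs over both libraries; grey bands span the 5th to 95th percentile of all genes tested. Il12rb2 under the STING agonist lies right of the band in T, NK and dendritic cells, and Il12b under the LTbR agonist lies left of it in dendritic cells, at -0.97.

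Il12b, which encodes the p40 chain of IL-12 and IL-23, was counted in 1500, 1219, 759 and 946 UMIs of dendritic cells in the untreated, STING agonist, LTbR agonist and combination libraries. These counts equal 305, 319.8, 155 and 326 CPM. The LTbR agonist library was the low one, at a log2 ratio of -0.97 (95% interval -1.10 to -0.85) to untreated, while the other treated libraries lay at 0.07 and 0.10. The counts came from few cells: 77, 55, 76 and 73 dendritic cells had a UMI, and 6, 6, 10 and 6 cells held 50% of the UMIs. In a single untreated cell 265 Il12b UMIs were counted, 17.7% of the class total, so the level of the class rests on few cells. The ratio under the STING agonist ranged from -0.24 to 0.43 over other ways of selecting or thinning cells, and that in the combination from -0.21 to 0.19, so neither kept one direction.

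By dendritic type, the mature cells (Ccr7, Fscn1 and Ccl22 markers) carried most of the Il12b. Their level was 1509.6 (95% interval 1431 to 1591), 1053 (975 to 1136), 763 (709 to 821) and 1654 (1529 to 1787) CPM, in the same library order. A UMI was found in 42.5%, 30.8%, 41.4% and 44.7% of mature cells, so the untreated and LTbR agonist libraries had similar shares of positive cells but 1387 and 725 UMIs in 62 and 63 cells. Mature cells were 23%, 21.7%, 20.4% and 16.1% of the dendritic class, and they held 92.5%, 55.4%, 95.5% and 68.5% of its Il12b UMIs. The remainder in the STING agonist and combination libraries was largest in cDC2 (conventional dendritic cells with Cd209a and Clec10a markers), with 25, 315, 8 and 218 UMIs over the 4 libraries, at 10.9, 146, 2.99 and 122 CPM, but from only 5, 5, 3 and 14 positive cells. cDC1 (Xcr1 and Clec9a markers) had 64.1, 175, 27 and 131 CPM from 10, 7, 6 and 8 positive cells. In plasmacytoid cells 0, 117, 5 and 0 UMIs were counted, the STING agonist library being the only one with more than 5.

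Macrophages and monocytes had 8.39, 14.9, 3.13 and 10.3 CPM of Il12b, from 29, 43, 29 and 83 positive cells. The LTbR agonist library was again the lowest, at -1.42 (95% interval -1.76 to -1.10), and the STING agonist library the highest, at 0.83 (95% interval 0.61 to 1.05). The parts of the class differed: macrophages had 11.5, 19.5, 4.78 and 14.6 CPM, while monocytes had 1, 254, 23 and 49 UMIs, with the untreated library the lowest. Of the Il12b UMIs of the class, 20.3%, 25.2%, 23.9% and 10.5% lay in its top cell. Different clusters made up this class in different libraries: a cluster led by Ch25h and Tlr12 was its largest in the untreated library and one led by Inhba, Thbd and Il6 in the STING agonist library. Cells left unnamed, among them a cluster led by Dcstamp, Ccl17 and Mgl2, held 13.4% of the Il12b UMIs in the combination and 0.422% to 1.57% elsewhere.

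**Figure D3:**
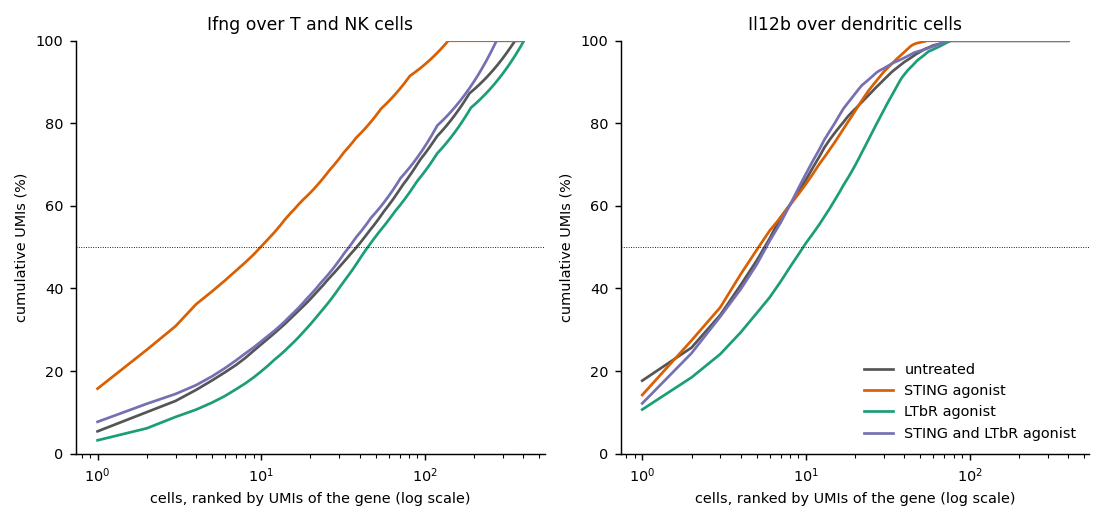
Cumulative share of a gene's UMIs (y axis, %) over cells ranked by their UMIs of it (x axis, log scale), for Ifng in T and NK cells together and Il12b in dendritic cells, 1 line per library; the dotted line marks 50%. Il12b reaches 50% within 6 to 10 cells in each library, and over T and NK cells together the Ifng line of the STING agonist library lies above the others up to the last cells.

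The partner chains of p40 were scarce in the cells with Il12b. Il12a, the p35 chain of IL-12, had 37, 33, 20 and 18 UMIs in dendritic cells and 0 UMIs in the mature cells of every library. No cell of the dendritic class or of the macrophage and monocyte class had a UMI of both Il12a and Il12b, at this depth, among 77, 55, 76 and 73 dendritic cells with Il12b, which allows up to 3.9% to 5.45% of those cells to hold a UMI of both if a count of 0 is read as 3 counts. This limits cells with UMIs, not cells that make both chains. Il23a, the p19 chain of IL-23, differed more between libraries, and macrophages and monocytes had 2.24, 40.3, 8.19 and 7.68 CPM of it. Its log2 ratio to untreated was 4.17 under the STING agonist, 1.87 under the LTbR agonist and 1.78 in the combination. Cells with both Il23a and Il12b numbered 0, 3, 0 and 0 in that class. Neutrophils held more Il23a, at 196, 242, 87.9 and 207 CPM, and the neutrophil markers summed to 193, 799.5, 305 and 317 CPM within the macrophage and monocyte class. Their part in the Il23a ratio was not tested.

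Of 8 further upstream cytokine genes listed for this work (Il12a, Il23a, Il27, Ebi3, Il18, Il15, Il1b and Tnf), 7 were tested in macrophages and monocytes. Under the STING agonist 3 were higher and 1 lower (6.31% of all genes higher and 14.8% lower), under the LTbR agonist 2 and 1 (4.66% and 4.09%), and in the combination 2 and 1 (4.75% and 3.83%). Il15, which sustains NK cells and memory T cells, was the lower one each time, at -0.81, -0.72 and -0.68. Tnf was higher under the STING agonist at 1.92. The list medians were 0.20, -0.08 and -0.10, beside -0.22, -0.05 and -0.08 over all genes tested. In dendritic cells, where 5 were tested, Il1b was higher at 1.15, 0.62 and 0.59, Il15 was lower under the STING agonist at -0.90, and Tnf was lower under the LTbR agonist at -1.70 and higher in the combination at 0.94. Neutrophil markers in the dendritic class summed to 16.9, 755, 158 and 81.7 CPM. In T cells 2 were tested, Il1b (at 2.34, 0.98 and 1.95) and Tnf, and in NK cells Il1b alone (at 0.69, 0.03 and 0.81). Neutrophil markers in the NK class summed to 7.59, 212, 15.6 and 31.3 CPM, and the part of neutrophil markers in the Il1b ratios was not tested.

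Il12rb2, the signalling chain of the IL-12 receptor, was at its highest in the STING agonist library in the T, NK and dendritic classes, though not in every subset of T cells. T cells had 163 (95% interval 153 to 174), 299 (277 to 321), 181 (171 to 192) and 182 (167 to 197) CPM in the untreated, STING agonist, LTbR agonist and combination libraries. The log2 ratio to untreated was 0.87 (95% interval 0.73 to 1.01) under the STING agonist, 0.15 (95% interval 0.02 to 0.28) under the LTbR agonist and 0.16 (95% interval 0.00 to 0.31) in the combination. Against the STING agonist alone, the combination was at -0.72 (95% interval -0.87 to -0.56). The share of T cells with a UMI was 25.1%, 38.9%, 24% and 18.6%, and on average over all ways of thinning 11.7%, 20.4%, 12.3% and 13.3%, so the STING agonist library was the highest on both scales. In CD8 T cells (Cd8a or Cd8b1 without Cd4) the level was 184, 355, 175 and 165 CPM, and in CD4 T cells, where the combination was the highest library, 112, 150.1, 148 and 174 CPM. The STING agonist ratio was 0.95 (95% interval 0.76 to 1.14) in the former, and in the latter 0.43 (95% interval -0.03 to 0.88), an interval that includes 0. Neutrophils held only 1.07, 1.31, 1.70 and 3.34 CPM of Il12rb2. B and plasma cells held 4.21, 1.00, 2.94 and 3.16 CPM. NK cells held more Il12rb2 than T cells, and the 8 NK markers, of which 7 or 8 had a UMI, summed to 473, 827, 735 and 717 CPM in the T class, highest in the STING agonist library. Their part in the Il12rb2 ratios of T cells was not tested.

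Clusters of T cells were formed without the 9 genes, and the STING agonist library was also the highest within several of them. In the cluster led by Klrh1, Rgs16 and Cd8a, Il12rb2 was at 156, 369, 251 and 222 CPM, and in the cluster led by Nsg2, Ifngas1, Sidt1 and Lef1 it was at 162, 282, 145 and 127 CPM. The cluster led by Foxp3, the factor of regulatory T cells, had 47.1, 60.6, 52.8 and 112 CPM, where the combination was the highest library and not the STING agonist. These levels came from 38, 16, 28 and 22 UMIs, so the order rests on few UMIs. NK cells had 299, 487, 311 and 379 CPM, with ratios to untreated of 0.71, 0.06 and 0.34. On average over all thinnings the STING agonist ratio in NK cells was 0.54, below 1.5-fold. In dendritic cells the level was 63.3, 132, 67.4 and 48.3 CPM, the STING agonist ratio was 1.06 (95% interval 0.85 to 1.27), and the combination lay at -0.39 (95% interval -0.69 to -0.10). Within that class the gene was found mainly in mature cells, at 222, 431, 217 and 135 CPM, and in cDC2, at 44.5, 102, 37.4 and 44.7 CPM. Macrophages and monocytes, at 6.04, 10.04, 11.6 and 16.2 CPM, had another order, with the combination highest at 1.43 (95% interval 1.16 to 1.69). T cell markers summed to 12, 4.01, 11.6 and 11.6 CPM in that class and to 14.2, 12.1, 34.8 and 18.6 CPM in the dendritic class. Among macrophages and monocytes, NK markers summed to 5.50, 7.16, 8.56 and 7.72 CPM and mature dendritic markers to 46.5, 46.1, 42.0 and 69.7 CPM. The cDC2 markers summed to 220, 114, 340 and 361 CPM there. The part of these markers in the Il12rb2 ratios was not tested.

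Il12rb1, the chain shared by the IL-12 and IL-23 receptors, was sparse. T cells had 146, 76, 154 and 81 UMIs, or 26.3, 30.7, 24 and 24.8 CPM, and the intervals of its 3 ratios to untreated included 0. NK cells had 19.999, 35.2, 31.8 and 32.3 CPM, from 29, 54, 88 and 34 UMIs, with the untreated library lowest. The ratio was 0.67 (95% interval 0.05 to 1.33) under the LTbR agonist, the only one tested because of the number of UMIs there, while the other treated libraries lay at least as high in CPM. It was 0.42 with no doublet removal and 0.53 with a marker gate per cell, both under 1.5-fold, and the gene would not be tested at a minimum of 200 UMIs. Macrophages and monocytes had 9.55, 5.15, 5.43 and 4.51 CPM, and here the untreated library was the highest. The ratios were -0.89 (95% interval -1.16 to -0.63), -0.81 (95% interval -1.09 to -0.55) and -1.08 (95% interval -1.40 to -0.77). The cluster led by Ch25h and Tlr12, which held the highest Il12rb1 of the untreated class, had 16.9, 11.3, 13.5 and 11.7 CPM, so a smaller difference was also present inside it. Mature dendritic cells had 0 UMIs of Il12rb1 in each library, beside their Il12rb2.
Cells with UMIs of both chains of the IL-12 receptor were rare. Among NK cells they made up 2.76%, 11.5%, 5.64% and 2.45%, and among T cells 2.94%, 4.97%, 2.21% and 1.27%, with 0 such cells among neutrophils and B and plasma cells. The STING agonist library had the highest share in both classes. These shares were not thinned and depend on depth, and the combination was the shallowest library.
Among 8 further receptor and kinase genes (Il18r1, Il18rap, Il27ra, Il15ra, Il2rb, Jak1, Jak2 and Tyk2), 0 were called in the T class, with 8 tested each time, and 0 in the NK class, with 7, 8 and 7 tested. Over all genes, 3.13%, 3.88% and 3.26% were higher and 5.68%, 3.86% and 4.26% lower in the T class. In the NK class 2.84%, 2.96% and 3.77% were higher and 3.44%, 1.48% and 2.17% lower. A count of 0 among so few genes is near these shares. Jak1, a kinase of both interferon-gamma and IL-2 family receptors, was at 0.25, 0.26 and 0.17 in T cells. In dendritic cells 1 of 5, 2 of 6 and 1 of 5 were higher (4.49%, 5.23% and 4.63% of all genes), Il18rap in each case, at 0.88, 1.05 and 0.74, and 1 was lower in the combination (Il15ra, -0.59, with 3.87% of all genes lower). NK and T cells also carry Il18rap, and the NK markers, of which 4 to 8 of 8 had a UMI, summed to 13.8, 27.3, 56.1 and 21.7 CPM in the dendritic class. Their part in the Il18rap ratios was not tested. In macrophages and monocytes 2 of 7 were higher and 2 lower under the STING agonist (6.31% and 14.8% of all genes), with Jak2 at 0.63. There 0 were called under the LTbR agonist (4.66% and 4.09%), and 2 were higher in the combination (4.75%). The list medians in the T class were 0.12, -0.04 and -0.12 beside -0.07, 0.00 and -0.05 over all genes.

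Stat4, the transcription factor that IL-12 activates, was at 599 (95% interval 579 to 619.8), 914 (877 to 952), 728 (707 to 749) and 791 (761 to 822) CPM in T cells. All treated libraries were above the untreated one, at 0.61, 0.28 and 0.40, and only the first passed 1.5-fold. CD8 T cells had 511, 846, 653 and 699 CPM, and CD4 T cells 620.3, 861, 701 and 869.9 CPM. The STING agonist ratio was 0.73 (95% interval 0.61 to 0.85) in the former and 0.47 (95% interval 0.28 to 0.66) in the latter, with overlapping intervals. In the Foxp3-led cluster Stat4 was at 492, 492, 438 and 472 CPM, with no treated library above the untreated one. NK cells had 1164, 1322, 1072 and 1169.8 CPM, and within them the cluster led by Clnk, Dscam and Samd3 had 1831, 2624, 1723 and 1690.1 CPM against 949.6, 907, 925 and 999 CPM in the cluster led by Gzmc, Klra8 and Gzma. The STING agonist ratio was 0.52 (95% interval 0.37 to 0.66) in the first cluster and -0.07 (-0.19 to 0.06) in the second.
Dendritic cells had 577, 766, 564 and 376 CPM, with the combination lowest at -0.62 (95% interval -0.72 to -0.52). Mature dendritic cells had more Stat4 than the other dendritic types, at 2335, 2714, 2248 and 1639 CPM, with a UMI in 95.9%, 97.2%, 96.1% and 82.5% of cells. They made up 16.1% of the dendritic class in the combination against 20.4% to 23.0% in the other libraries. Macrophages and monocytes had 23.3, 41.5, 24 and 35.8 CPM, against 129.6, 179, 149 and 210.3 CPM in neutrophils, whose markers were highest in the STING agonist library in that class. Their part in the Stat4 ratio was not tested.

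Tbx21, which encodes T-bet, stayed within 1.5-fold in the T, NK and dendritic classes, and it had under 100 UMIs over both libraries, and so was not tested, in macrophages and monocytes. T cells had 147, 140.4, 163 and 137 CPM, NK cells 302, 283, 297 and 297 CPM and CD8 T cells 195, 193, 196 and 175 CPM. Its ratios to untreated in the T class were -0.07 (95% interval -0.25 to 0.12), 0.15 (95% interval 0.02 to 0.29) and -0.10 (95% interval -0.27 to 0.07). Within the dendritic class most of its UMIs were in cDC2, at 21.4, 19.4, 15.3 and 29.1 CPM from 25, 25, 25 and 31 cells, with 11.7, 4.69, 10.3 and 3.29 CPM in cDC1. Macrophages and monocytes had 15, 31, 45 and 27 UMIs.
Eomes, the T-box factor of NK cells and of some CD8 T cells, was at 272, 263, 326 and 304 CPM in NK cells and 38.8, 38.7, 56.7 and 49.6 CPM in T cells. Its ratio in the T class was 0.55 (95% interval 0.30 to 0.80) under the LTbR agonist and 0.35 (95% interval 0.05 to 0.66) in the combination, both under 1.5-fold. The NK markers in the T class were also above untreated in both, at the sums given for Il12rb2, and NK cells have more Eomes. The part of these markers in the Eomes ratios was not tested. CD4 T cells had 13, 0, 23 and 0 UMIs. Among NK clusters, the Gzmc-led one had 345, 329, 385 and 387 CPM and the Clnk-led one 45.4, 56.6, 66.5 and 49.9 CPM, while Tbx21 was at 284, 292, 295 and 341 and 357, 256, 307 and 165 CPM in them. Eomes thus separated the NK clusters in every library and Tbx21 did not, except for a lower Tbx21 level in the Clnk-led cluster of the combination. Among CD8 T cells, 41.9%, 38.4%, 30.7% and 23.4% had Tbx21 without Eomes, 11.2%, 8.33%, 12.5% and 8.63% Eomes without Tbx21 and 9.90%, 8.33%, 7.59% and 4.32% both. Of NK cells, 26.4%, 25.4%, 22.8% and 18.7% had Tbx21 without Eomes. Eomes without Tbx21 was found in 18.1%, 15.5%, 19.9% and 19.4% of them, and both in 24.1%, 25.6%, 29.2% and 14%. These shares were not thinned.
Of 10 other transcription factor genes (among them Runx3, Bhlhe40, Zeb2, Id2, Nfil3, Batf and Irf8), 9 were tested in T cells. Only Id2, an inhibitor of E proteins, was called, and it was lower under the LTbR agonist at -0.67 and in the combination at -0.77 (3.86% and 4.26% of all genes lower). In NK cells 1 of 9, 1 of 9 and 3 of 8 were higher (2.84%, 2.96% and 3.77% of all genes). Nfil3, needed for NK development, was at 0.84 and 0.72 under the single agonists, and Zeb2 and Irf8 were at 0.80 and 0.79 in the combination. In dendritic cells 1, 0 and 2 of 10 were higher (4.49%, 5.23% and 4.63% of all genes), with Nfil3 at 0.78 under the STING agonist. In macrophages and monocytes 1 of 10 was higher each time (6.31%, 4.66% and 4.75% of all genes), Bhlhe40, at 0.80, 0.96 and 0.87.

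Ifng, the cytokine at the end of the programme, was at 219 (95% interval 207 to 232), 229 (210.3 to 248), 167 (157 to 177) and 193 (179 to 209) CPM in T cells of the untreated, STING agonist, LTbR agonist and combination libraries. The ratio to untreated was 0.06 (95% interval -0.08 to 0.21) under the STING agonist, -0.39 (95% interval -0.51 to -0.27) under the LTbR agonist and -0.18 (95% interval -0.32 to -0.04) in the combination, all within 1.5-fold. T cells with a UMI were 21.2%, 14.6%, 14.4% and 12.6%, and on average over all ways of thinning 9.52%, 7.26%, 7.58% and 9.73%. The thinned shares of the untreated and combination libraries lay close together. The combination ratio was 0.15 in 1 random thinning and 0.18 on average over all thinnings, against -0.18 in whole cells, so its direction differed between whole and thinned cells. The LTbR agonist ratio was -0.21 on that average. NK cells had 70.3, 73.7, 83.9 and 116 CPM from 102, 113, 232 and 122 UMIs. The combination was the highest library there, at 0.72 (95% interval 0.33 to 1.11), while the single agonists lay at 0.07 and 0.25.
CD8 T cells held 77.7%, 76.3%, 57.4% and 59.3% of all leukocyte Ifng UMIs, the largest share among T cell subsets and NK cells. Their level was 360.4, 479.9, 296 and 279 CPM. The ratio in them was 0.41 (95% interval 0.26 to 0.57) under the STING agonist, -0.28 (95% interval -0.42 to -0.15) under the LTbR agonist and -0.37 (95% interval -0.53 to -0.21) in the combination. Without the top cell of each library the STING agonist ratio was 0.20 (0.03 to 0.37), since that library's top cell was a CD8 T cell. CD4 T cells had 102, 48.6, 103 and 224 CPM, but from 33, 7, 40 and 16 positive cells, and the 10 top cells held 73 of 98, 22 of 22, 85 of 126 and 83 of 89 UMIs.
Few cells carried most of the Ifng. In T cells 32, 6, 33 and 25 cells held 50% of the UMIs. One cell of the STING agonist library had 107 UMIs, 18.9% of its class total, and without the top cell of each library the STING agonist ratio in T cells was -0.15 instead of 0.06. In NK cells the top cell held 10.8%, 9.73%, 8.19% and 7.38% of the UMIs.

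The T cell clusters differed more in Ifng than the libraries did. In the cluster led by Klrh1, Rgs16 and Cd8a, Ifng was at 440.3, 839, 519 and 500.5 CPM, and 57.3%, 63.2%, 53.4% and 42.2% of its cells had a UMI. All treated libraries were above the untreated one in it, at log2 ratios of 0.93 (95% interval 0.77 to 1.08), 0.24 (0.10 to 0.37) and 0.18 (0.02 to 0.34). The cell with 107 UMIs lay in this cluster, and without the top cell of each library the STING agonist ratio was 0.72 (0.55 to 0.89). This cluster made up 27.9%, 15.7%, 15.4% and 21.3% of the T class, a share that rests on clustering and on genes that may themselves differ between libraries. In the cluster led by Nsg2, Ifngas1, Sidt1 and Lef1, which made up 19.1%, 37.3%, 44.4% and 46.8%, Ifng was at 23.2, 26.2, 49 and 34.2 CPM. Ifngas1, an antisense RNA gene named after Ifng, was not among the genes left out of the clustering. The level of the whole T class is thus an average over clusters whose shares differed. The cluster led by Cd40lg, Scart1 and Il23r had 109, 47.7, 90.9 and 182 CPM, and the Foxp3-led cluster had 3, 0, 1 and 0 UMIs. In NK cells, the Gzmc-led cluster had 84.8, 93.8, 100.3 and 153 CPM and the Clnk-led cluster 9, 4, 6 and 1 UMIs. Il12rb2 was at 264, 393, 282 and 349 CPM in the former and 405, 781, 438 and 469 CPM in the latter.

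**Figure D4:**
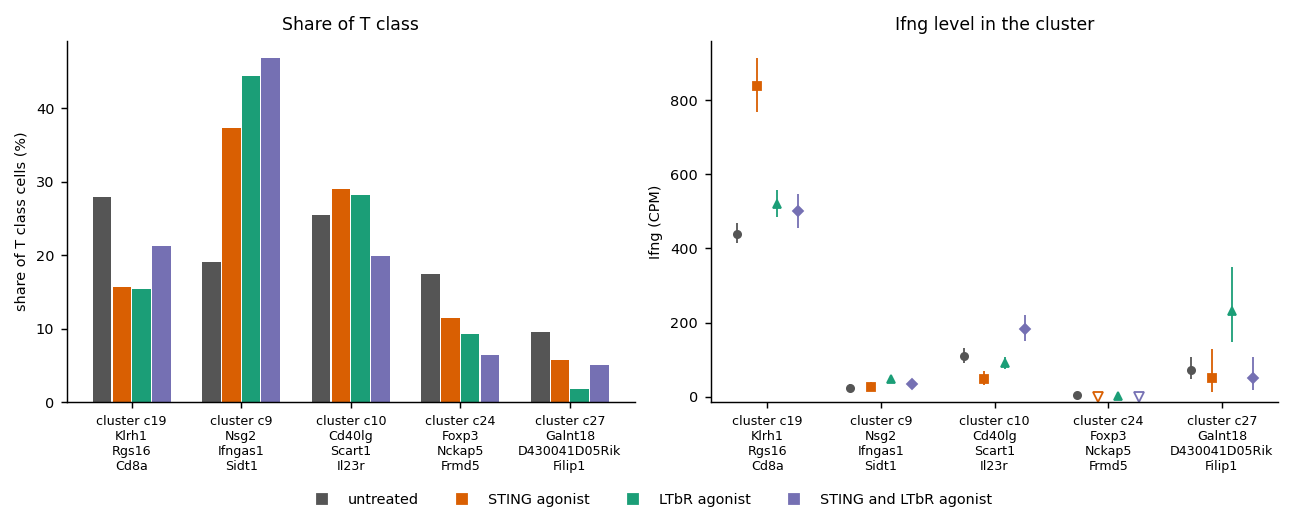
Share of the T class (left, %, bars from 0) and Ifng level (right, CPM, points with exact Poisson 95% intervals) in 5 T cell clusters, named by their leading genes, with 1 colour per library; open triangles mark 0 UMIs. The Klrh1-led cluster has the highest Ifng in each library, from 440.3 to 839 CPM.

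Over 40 points (10 cell types in each of 4 libraries) and 13018 genes, the levels most like Ifng by Pearson r of log2(CPM + 1) were those of Sh2d2a (0.976), Prf1 (0.972) and Lck (0.957). For Il12b they were Arhgap28 (0.886), Mab21l3 (0.882) and Strip2 (0.881). The points share libraries and depth, so these values describe likeness only.
Of 12 effector genes that accompany Ifng (among them Cxcr3, Ccl3, Ccl4, Gzmb, Prf1, Nkg7, Klrg1 and Xcl1), all 12 were tested in T cells. Under the STING agonist 1 was higher and 2 lower (3.13% of all genes higher and 5.68% lower), under the LTbR agonist 0 and 4 (3.88% and 3.86%), and in the combination 0 and 3 (3.26% and 4.26%). Ccl3, a chemokine of activated lymphocytes, was lower in each, at -0.77, -1.17 and -0.97, and Gzmb, a cytotoxic protease, was the higher one at 0.68. NK cells carry much Gzmb too, and the NK markers in the T class were highest in the STING agonist library, at 827 CPM against 473 CPM in the untreated one, and the part of these markers was not tested. The medians were -0.11, -0.33 and -0.43 beside -0.07, 0.00 and -0.05 over all genes. In NK cells 10 were tested, with 1 higher and 2 lower (2.84% and 3.44% of all genes), 2 and 2 (2.96% and 1.48%), and 3 and 1 (3.77% and 2.17%). Prf1, which encodes perforin, was at 0.56, 0.66 and 0.64 in them, and Ccl4, a chemokine, was at -1.03 under the STING agonist and 0.85 in the combination. In dendritic cells 5 were tested, with 1 higher and 1 lower (4.49% and 5.19% of all genes), 1 and 0 (5.23% and 2.53%), and 1 and 1 (4.63% and 3.87%), Ccl3 being the higher one. The neutrophil markers in the dendritic class were above untreated in the same comparisons, at 16.9, 755, 158 and 81.7 CPM, and their part in the Ccl3 ratios was not tested. In macrophages and monocytes, also with 5 tested, the counts were 2 and 1 (6.31% and 14.8% of all genes), 1 and 0 (4.66% and 4.09%), and 1 and 0 (4.75% and 3.83%).
Of 11 genes of other helper programmes (among them Gata3, Foxp3, Bcl6, Maf, Il4, Il5, Il17a and Il10), 9, 11 and 8 were tested in T cells, with 2 higher and 2 lower (3.13% and 5.68% of all genes), 4 and 3 (3.88% and 3.86%), and 2 and 4 (3.26% and 4.26%). Il5, a type 2 cytokine, was the lowest each time, at -4.29, -2.20 and -4.37, from 63.1 to 3.23 CPM under the STING agonist. Il17a was at 1.15 under the STING agonist and 0.71 in the combination, and Il4 at 3.03 under the LTbR agonist. The Il4 ratio came from 18 and 170 UMIs in 0.645% and 0.956% of T cells. Mast cells and basophils also make Il4, and their 6 markers, of which 0 to 3 had a UMI, summed to 0.361, 0, 5.61 and 1.84 CPM in the T class, highest in that library, and the part of these markers in the ratio was not tested. In NK cells 0 of 3, 0 of 3 and 0 of 2 were called, beside 2.84%, 2.96% and 3.77% of all genes higher and 3.44%, 1.48% and 2.17% lower. In dendritic cells 0 of 1 was called each time, beside 4.49%, 5.23% and 4.63% higher and 5.19%, 2.53% and 3.87% lower. In macrophages and monocytes, with 3 tested, Il10 was higher under the STING agonist at 1.81 (6.31% of all genes higher) and Maf lower in the combination at -0.86 (3.83% lower).

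T cells with an Ifng UMI were compared with the other T cells for the rest of the programme. Before thinning they were deeper, with a median of 5399.5 against 3045.5 UMIs in the untreated library, so the comparison was made on cells thinned to 1000 UMIs. The shares given next are averages over all ways of thinning, so that T cells and CD8 T cells can be compared. Il12rb2 was found in 15.4%, 34.5%, 24.2% and 27.1% of T cells with Ifng, against 11.4%, 19.3%, 11.3% and 11.8% of those without. Within CD8 T cells alone the shares were 13.9%, 32%, 21.5% and 22.5% with Ifng and 15%, 25%, 12.6% and 11.4% without. The gap was thus smaller within CD8 T cells in each library, and absent there in the untreated one. In 1 random thinning of the T class, the Clopper-Pearson intervals for Il12rb2 were apart in the 3 treated libraries, but in 1 of CD8 T cells only in the combination, and there the STING agonist shares lay the other way, at 18.9% with Ifng and 29.7% without. Tbx21 was found in 16.3%, 19.6%, 23.9% and 13.2% of T cells with Ifng, against 11.2%, 10.3%, 11.6% and 10.9% of those without. Within CD8 T cells its shares were 16.2%, 21.9%, 24.7% and 13.5% and 17.4%, 13.8%, 13.8% and 14%, so the untreated and combination libraries had no higher share with Ifng there. In the drawn thinnings of T and CD8 T cells the Tbx21 intervals were apart in 1 case, the LTbR agonist T class. Stat4 was found in 38.3%, 49.98%, 44.9% and 40.7% with Ifng and 41.9%, 53.1%, 46.5% and 46.6% without in the T class. Among CD8 T cells it was found in 37.1%, 46.7%, 40.2% and 36.6% with Ifng and 37.8%, 53.7%, 44.4% and 44.3% without. On that average its share was lower beside Ifng in each library of both, but the drawn thinning of untreated CD8 T cells lay the other way, at 42.6% with Ifng and 36.8% without. In the drawn thinnings of T and CD8 T cells its intervals were apart only in the combination T class, at 30.6% with Ifng and 47.1% without, and those of Eomes and Il12rb1 overlapped in each library of both. In NK cells the average Stat4 shares were 66.24%, 54.0%, 60.7% and 69.8% with Ifng and 66.17%, 67.7%, 61.9% and 63.2% without, so the combination lay the other way there. Before thinning the Tbx21 shares had been 54.4%, 62.5%, 54.5% and 27.8% against 24.9%, 23.8%, 23% and 17.2%.
Ifngr1 was found in 39.1%, 42.6%, 43.9% and 43.4% of T cells with Ifng, against 52.5%, 60.8%, 51.9% and 47.3% of those without, again on average over all thinnings. In the drawn thinning of the T class its intervals were apart in the untreated and LTbR agonist libraries. Within CD8 T cells the shares were 38.4%, 35.6%, 41.4% and 41.4% and 44.4%, 56.5%, 46.3% and 44%, with overlapping intervals in each library of the drawn thinning, where the combination lay the other way, at 48.4% with Ifng and 44.1% without. In NK cells they were 61.4%, 68.7%, 66.1% and 69.7% and 61.3%, 68.4%, 59.98% and 63.3%, so on that average no lower share was seen beside Ifng there. Ifngr2, the second chain, was rarely found beside Ifng. Before thinning, a UMI of it was found in 0 of 296, 5 of 88, 1 of 286 and 2 of 209 T cells with Ifng in the untreated, STING agonist, LTbR agonist and combination libraries. The count of 0 allows up to 1.01% of such cells to hold an Ifngr2 UMI if read as 3 counts, and 1.24% by the Clopper-Pearson interval. Among T cells without Ifng the counts were 98 of 1100, 51 of 516, 143 of 1702 and 103 of 1451. Summed over the libraries, 0.910% (95% interval 0.394% to 1.79%) of T cells with Ifng and 8.28% (7.52% to 9.10%) of those without had an Ifngr2 UMI, although the former were deeper. In the STING agonist library the gap was the smallest, at 5.68% against 9.88%, and 1 random thinning of it gave 4.35% and 4.48%. On average over all thinnings the shares were 0%, 0.714%, 0.0970% and 0.228% with Ifng and 3.27%, 3.78%, 3.47% and 4.00% without, and in the drawn thinning the intervals were apart only in the LTbR agonist library. Within CD8 T cells alone, the summed shares were 0.960% of 625 cells and 4.46% of 1434 cells. The Klrh1-led cluster, the richest in Ifng, had 2, 6, 1 and 3 UMIs of Ifngr2, from 389, 95, 307 and 353 cells, while its Ifngr1 was at 508, 545, 543 and 546 CPM. The Cd40lg-led cluster had 88.1, 77.1, 83.8 and 63 CPM of Ifngr2.

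**Figure D5:**
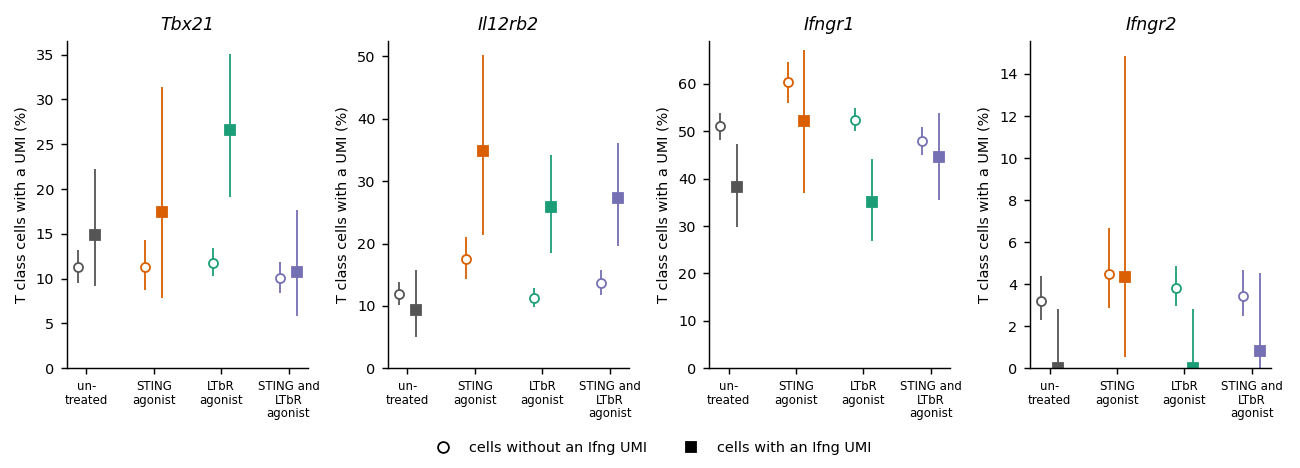
Share of T class cells with a UMI of Tbx21, Il12rb2, Ifngr1 or Ifngr2 (y axis, %) among cells without (open circles) and with (filled squares) an Ifng UMI in each library, all cells thinned to 1000 UMIs in 1 random draw, with Clopper-Pearson 95% intervals. In this draw Il12rb2 is more frequent in cells with Ifng in the 3 treated libraries, and Ifngr2 was in 0 of 128 such cells of the untreated library.

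Ifngr1, the ligand-binding chain of the interferon-gamma receptor, was present in all classes. T cells had 750.0, 952, 769 and 708 CPM, NK cells 988, 1209, 973 and 1095 CPM, dendritic cells 235, 325, 299 and 324 CPM and macrophages and monocytes 224, 245, 291 and 289 CPM. In the last class all treated libraries were above the untreated one, at 0.13 (95% interval 0.08 to 0.17), 0.38 (95% interval 0.33 to 0.42) and 0.36 (95% interval 0.32 to 0.41), each under 1.5-fold. In dendritic cells all treated libraries were also above the untreated one, at 0.47, 0.34 and 0.46. Among macrophage and monocyte clusters, the one led by Ace and Adgre4 had the most Ifngr1, at 537, 542, 639 and 604 CPM, and mature dendritic cells had less, at 58.8, 99.9, 80.02 and 99.6 CPM.
Ifngr2 was at 145, 127, 138 and 129 CPM in macrophages and monocytes, where the STING agonist ratio of -0.19 was close to the shift of the median gene, and at 115, 131, 120.4 and 107 CPM in dendritic cells. T cells had 24.5, 30.7, 32.7 and 37.6 CPM, with a ratio of 0.62 (95% interval 0.25 to 0.98) in the combination and 0.42 (95% interval 0.10 to 0.74) under the LTbR agonist, where it was -0.13 in 1 random thinning and 0.097 on average over all thinnings. On that average the combination ratio was 0.20, below 1.5-fold. The 8 macrophage markers summed to 253, 195, 213 and 484 CPM in the T class, highest in the combination, and their part in the Ifngr2 ratio was not tested. NK cells had 7.59, 7.17, 4.70 and 12.3 CPM. In CD8 T cells 10, 16, 27 and 33 UMIs were counted, or 3.51, 14.6, 10.2 and 20.1 CPM, with the untreated library lowest. Both receptor chains were seen in 38.1%, 37%, 28.4% and 18.3% of macrophages and monocytes, in 5.52%, 8.11%, 6.09% and 3.80% of T cells and in 1.26%, 1.41%, 1.10% and 0.874% of NK cells, shares that were not thinned.
Of 27 genes induced by interferon-gamma, 26 were tested in macrophages and monocytes. Under the STING agonist 3 were higher and 3 lower (6.31% of all genes higher and 14.8% lower), under the LTbR agonist 2 and 1 (4.66% and 4.09%), and in the combination 2 and 1 (4.75% and 3.83%). The medians were -0.17, -0.02 and -0.01, beside -0.22, -0.05 and -0.08 over all genes tested. Nos2, the inducible nitric oxide synthase, was at 1.30, 1.27 and 0.84. Iigp1, an interferon-induced GTPase, went the other way, at -0.93, -0.70 and -0.68, and Ciita, the master regulator of MHC class II, was at -0.94 under the STING agonist. In dendritic cells, with 25, 26 and 24 tested, 2, 3 and 1 were higher (4.49%, 5.23% and 4.63% of all genes) and 0, 0 and 1 lower (5.19%, 2.53% and 3.87%), with Acod1 at 4.39 and 3.11 under the single agonists. The neutrophil markers in the dendritic class were highest in those same libraries, at 755 and 158 CPM against 16.9 CPM, and their part in the Acod1 ratios was not tested. In T cells 22, 21 and 22 were tested, with 2 higher and 2 lower (3.13% and 5.68% of all genes), 2 and 0 (3.88% and 3.86%), and 4 and 0 (3.26% and 4.26%). In NK cells 18, 19 and 16 were tested, with 0 and 3 (2.84% and 3.44% of all genes), 1 and 3 (2.96% and 1.48%), and 1 and 0 (3.77% and 2.17%). H2-Aa, an MHC class II gene, was at -1.81 and -1.20 in NK cells under the single agonists, and H2-Ab1 was at 1.39 in T cells of the combination, where B cell markers summed to 87.2 CPM against 9.19 CPM in untreated T cells. Dendritic cells carry much MHC class II RNA, and the cDC1 markers summed to 62.8, 33.9, 34.7 and 38 CPM in the NK class. There the cDC2 markers went the other way, at 22.1, 45.6, 27.1 and 61.7 CPM, and the mature dendritic markers summed to 22.8, 24.8, 26.4 and 38.9 CPM. In the T class, macrophage markers summed to 484 CPM in the combination against 253 CPM in the untreated library. The mature dendritic markers summed to 192 against 109 CPM there, the cDC2 markers to 40.1 against 29.2 CPM and the cDC1 markers to 89.6 against 131 CPM. The part of these markers in either ratio was not tested.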

How the data were processed

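The data were gene counts of single cells from the 4 libraries, 1 per group, prepared with a 10x 5′ kit. The authors aligned the reads to mm10 with Cell Ranger (7.1.0 in the submitters' processing notes, 8.0.1 in the file headers) and deposited the filtered UMI counts, not normalized, for 33696 genes. The 9 genes, the gene lists and the markers were chosen with earlier results of these data known.

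Cells with 300 to 5000 genes and at most 6% mitochondrial UMIs were kept, after the study's limits (7776, 14326, 14041 and 15698 cells in the untreated, STING agonist, LTbR agonist and combination libraries). The automatic threshold of a doublet caller (Scrublet) marked 0 or 1 cell per library, so the cells with the highest doublet scores were removed at 0.4% per 1000 cells. These 305 to 1066 cells per library were picked from all deposited cells, and some lay outside the limits above. With both steps 7524, 13444, 13223 and 14667 cells were left. All libraries were clustered together (scanpy 1.11.5, 10000 UMIs per cell, 2000 variable genes without the 9 genes and the listed genes, 30 components, 20 neighbours, resolution 1). A cluster was named where at least 3 fixed markers were 2-fold above the median of the other clusters and found in 10% of its cells, settings and comparator that were set after the data were seen. A cluster that was shallow, or had more markers of another class among its 10 leading genes, stayed unnamed (4.42% to 6.96% of leukocytes).

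UMIs were summed per class and library. CPM had exact Poisson intervals, ratios had intervals from the binomial split of the UMIs, and shares had Clopper-Pearson intervals, all at 95% and for counting error only. A class with 0 UMIs allows up to 3 counts. Genes with at least 100 UMIs over both libraries were compared and called at 1.5-fold. Free RNA was gauged in neutrophils and B and plasma cells, and thinning to 1000 UMIs left out 87, 45, 189 and 383 T cells. Cells were thinned in random draws, separate for levels and for each class of cells with and without Ifng, and the exact average over all draws was added after the data were seen. Ratios were checked on simulated counts. The named genes were the 9 genes and, per list, class and comparison with untreated, the 2 highest and 2 lowest ratios (likeness: the 3 highest r over genes with at least 200 UMIs). Some listed genes are counted in their lists and not reported here by name. scipy 1.17.1 and pandas 2.3.3 were used under Python 3.11.15. Alternatives covered doublets, resolution, a gate of 2 markers per cell, the upper gene limit, thinning, the total, centring, the top cell and the minimum of UMIs.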

Additional observations from a re-analysis of the deposited data

How the results depend on the processing

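No paired analysis was possible because each group had 1 library. Ratios are log2 to untreated. In cells thinned to 1000 UMIs (1 random draw), Ifng in T cells of the combination turned from -0.18 to 0.15, Il12rb2 in T cells under the LTbR agonist to -0.011, Ifngr2 in T cells under the LTbR agonist to -0.13 and Ifngr2 in dendritic cells under the STING agonist to -0.39. The cause was not tested. The exact average over all thinnings, added after seeing the data, gave 0.18 for Ifng in T cells of the combination, -0.21 for it under the LTbR agonist, -0.064 for Il12rb2 in T cells under the LTbR agonist and 0.097 for Ifngr2 in T cells under the LTbR agonist. For Il12rb2 in NK cells under the STING agonist that average was 0.54, below 1.5-fold. Without the top cell of each library, Ifng in T cells under the STING agonist was -0.15. Il12b in dendritic cells under the STING agonist was -0.11 at resolution 2, -0.24 with a marker gate per cell, 0.43 with no upper limit on genes and 0.41 in thinned cells. With no upper limit it was -1.16 under the LTbR agonist and -0.21 in the combination, and -0.035 in thinned cells of the combination. Ifngr1 in macrophages and monocytes was 0.077 under the STING agonist with no doublet removal. Centred on the median gene it was 0.35, 0.43 and 0.45 under the STING agonist, LTbR agonist and combination, and Ifngr2 there turned to 0.031 under the STING agonist. With at least 200 UMIs, the share of genes lower in NK cells was 1.99%, 0.910% and 1.31% in the same order, that of genes higher in NK cells under the LTbR agonist was 1.75%, and that of genes lower in dendritic cells was 3.30% and 1.45% under the single agonists. No ratio left its range when immunoglobulin, mitochondrial and ribosomal protein genes were taken out of the total. The shallow combination library limits the shares of cells with a UMI.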
